A study of Mus musculus with 4 samples.

Results

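The 6 beta-defensin genes described here are Defb1, Defb3, Defb4, Defb6, Defb8 and Defb14, taken by name from a deposited table of 47725 genes of mouse skin that lists 43 beta-defensin genes in all. They were chosen because some stood high and others low in the deposited comparison of cKO with control skin, so their levels and fold changes in that comparison are given as a description, with no test. RNA was taken from frozen, pulverized whole skin of 17-week-old mice on the C57BL/6J background, and mRNA libraries were made by oligo(dT) selection. The cKO group has libraries 2 and 3; the title of the series names K5 beside Pp6, which is taken to mean that the keratin 5 promoter of basal keratinocytes drives the recombination. The control group, labelled PP6fl/fl, also has libraries 2 and 3 and carries the same floxed alleles; Pp6 is Ppp6c, the catalytic subunit of protein phosphatase 6. The labels do not say whether each library came from its own animal, so the spread between libraries of a group may be technical.

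Beta-defensins are short cationic peptides, folded around disulfide bonds between conserved cysteines, that epithelia secrete and that damage microbial membranes. In skin they come mainly from keratinocytes. Some are made at a steady level, Defb1 being the usual example, and others are induced by microbial products and by cytokines such as IL-17, IL-22 and IL-1. Several also attract leukocytes through the chemokine receptor Ccr6. Many other genes of the family are known from the male reproductive tract.

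The deposited counts summed to 15837136 and 17459413 in cKO libraries 2 and 3, and to 23407731 and 22334208 in control libraries 2 and 3. Levels are given as CPM, counts scaled to a common library total, after TMM scaling, which sets the libraries against each other, or as the authors' FPKM, which also divides by transcript length and is used wherever genes are compared. Ppp6c itself stood at 62.1 and 50.1 CPM in cKO libraries 2 and 3, against 57.8 and 61.8 CPM in control libraries 2 and 3, a log2 fold change of -0.09 ± 0.16 (SE over 2 libraries per group; adjusted p = 0.81 by edgeR quasi-likelihood). Because these counts cover the full transcript and every cell of the skin, they do not check the deletion in the keratin 5 lineage. Keratinocyte markers were abundant in all 4 libraries: the 6 listed basal markers summed to 11960 to 18231 CPM in cKO and to 9327 to 10480 CPM in control. Krt14 carried the higher cKO sum, with 11502 and 7742 CPM in cKO, against 3900 and 3007 CPM in control, and 4 of the 6 had log2 fold changes below 0 (median -0.13).

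All 6 genes lie on chromosome 8 in the RefSeq annotation, and genes that were high in cKO are interspersed there with genes that were low. Read along the chromosome, the order is Defb14, Defb4, Defb6, Defb3, Defb8 and, 40 protein-coding genes further on, Defb1. Defb14, Defb4 and Defb3 were high in cKO, whereas Defb6 and Defb8, which lie between and beside them, were low. The sequence before the start of transcription is at hand for Defb3, Defb6 and Defb8, which are shown because these near neighbours carry closely related upstream sequence and had opposite differences in level. The capitals mark an octamer motif (ATTTGCAT, bound by POU-domain factors) and a TATA box match (TATANAA). Each run is the 250 bases before the start, 5′ to 3′ on the gene's own strand, from RefSeq on build GRCm38.p6, at chr8:19293111-19293360 on the plus strand for Defb3, chr8:19225228-19225477 on the plus strand for Defb6 and chr8:19447607-19447856 on the minus strand for Defb8.
Defb3, high in cKO: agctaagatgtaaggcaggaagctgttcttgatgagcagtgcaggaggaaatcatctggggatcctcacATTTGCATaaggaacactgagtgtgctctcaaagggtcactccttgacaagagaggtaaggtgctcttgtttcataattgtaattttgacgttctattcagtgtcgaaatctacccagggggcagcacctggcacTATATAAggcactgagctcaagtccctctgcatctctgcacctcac
Defb6, low in cKO: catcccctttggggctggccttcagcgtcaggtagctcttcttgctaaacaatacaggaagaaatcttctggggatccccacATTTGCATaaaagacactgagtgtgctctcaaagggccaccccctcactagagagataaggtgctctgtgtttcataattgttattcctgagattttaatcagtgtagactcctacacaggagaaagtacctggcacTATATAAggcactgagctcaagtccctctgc
Defb8, nearly at 0 in cKO: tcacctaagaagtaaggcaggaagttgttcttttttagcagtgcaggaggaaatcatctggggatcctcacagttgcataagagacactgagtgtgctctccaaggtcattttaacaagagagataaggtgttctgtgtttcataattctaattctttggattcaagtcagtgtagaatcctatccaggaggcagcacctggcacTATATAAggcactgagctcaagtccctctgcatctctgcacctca

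Aligned over these windows, Defb3 and Defb8 were identical at 86.7% of alignment columns, Defb3 and Defb6 at 74.0%, and Defb6 and Defb8 at 73.5%. The closest upstream sequences therefore belong to a gene that was high in cKO and a gene that was nearly at 0 there. All 3 windows hold TATANAA on the gene's strand, 25 to 46 bases before the start, against 10.4% of 32851 RefSeq mouse promoter windows of the same length searched on both strands. Of 29 beta-defensin genes with a window, 6 hold it, and the other 3, Defb5, Defb7 and Defb48, had 0 counts in all 4 libraries. The octamer ATTTGCAT occurs in the Defb3 and Defb6 windows and in 1.6% of all windows. At the aligned place the Defb8 window differs by the substitution T2G, counted from 1 at the 5′ end of the octamer, with the letter of Defb3 and Defb6 first. The octamer was also found upstream of Defb5, Defb9, Defb26 and Defb46, of which Defb9 had 1 count in the 4 libraries together and the others 0. It therefore marks neither the genes high in cKO nor those low there. The letters of the motif were chosen after the sequences were seen.

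Other motifs were searched on both strands in the same windows. The C/EBP pattern TTNNGNAA was present in all 3 and in 36.8% of all windows. In Defb3 and in Defb6, 1 of its matches overlaps the octamer. A match at bases 74 to 81 of the Defb8 window overlaps the aligned place there. A match to the NF-kB consensus was present in the Defb6 window and in 7.25% of all windows. Neither the AP-1 pattern TGANTCA, found in 6.75% of all windows, nor the STAT pattern TTCNNNGAA, found in 7.02%, occurs in the 3 windows shown. These are letters in short windows and say nothing of binding.

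The transcripts of the 6 genes can be told apart over most of their length. Of the 31-base words of each annotated GENCODE M21 transcript, 0 were shared with another gene in Defb14, Defb6 and Defb1, 1.6% in Defb3, 9.9% in Defb4 and 19.8% in Defb8. The genes that Defb8 shares words with are Defb4, Defb7, Defb3 and Defb5. Reads from shared stretches may have been divided between Defb8, Defb4 and Defb3, and Defb4 and Defb3 stood on the other side of the comparison from Defb8.

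Defb14, an inducible peptide and the mouse counterpart of human beta-defensin 3, had 9.67 and 7.94 CPM in cKO libraries 2 and 3, against 0.457 and 0.661 CPM in control libraries 2 and 3. Both cKO libraries lay above both control libraries, and the libraries of each group were close together. The log2 fold change of cKO over control was 3.96 with an SE of 0.37 (n = 2 libraries each), and the 4 ratios of a cKO to a control library ran from 12 to 21.2. In counts these levels rest on 152 and 133 in cKO, against 11 and 15 in control.

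Defb4, an inducible peptide regarded as the mouse counterpart of human beta-defensin 2, had 3.50 and 12.5 CPM in cKO libraries 2 and 3, against 0.0831 and 0 CPM in control libraries 2 and 3. The groups did not overlap, but library 3 of cKO was 3.56 times as high as library 2. The cKO libraries together held 264 counts, against 2 in control; after scaling the ratio was 190, with an exact 95% counting interval of 52.1 to 1578. The 0 in control library 3 allows up to 0.132 CPM at 3 counts. The log2 fold change of 7.35 ± 1.23 (SE) therefore depends on the control counts: it was 6.5 without control library 3 and 10.2 without control library 2, where the remaining control is at 0.

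Defb3, which epithelia of the airway in mice make in response to bacteria, had 4.52 and 13.2 CPM in cKO libraries 2 and 3, against 0.0831 and 0.0881 CPM in control libraries 2 and 3. Again the groups did not overlap and cKO library 3 was the higher, by 2.92 times. Over 292 cKO counts, against 4 control counts, the ratio after scaling was 105 (counting interval 40.6 to 388), and the log2 fold change was 6.59 ± 0.84 (SE). Defb4 and Defb3 thus shared their pattern over the 4 libraries, while Defb14 was slightly lower in cKO library 3 than in library 2.

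**Figure D1:**
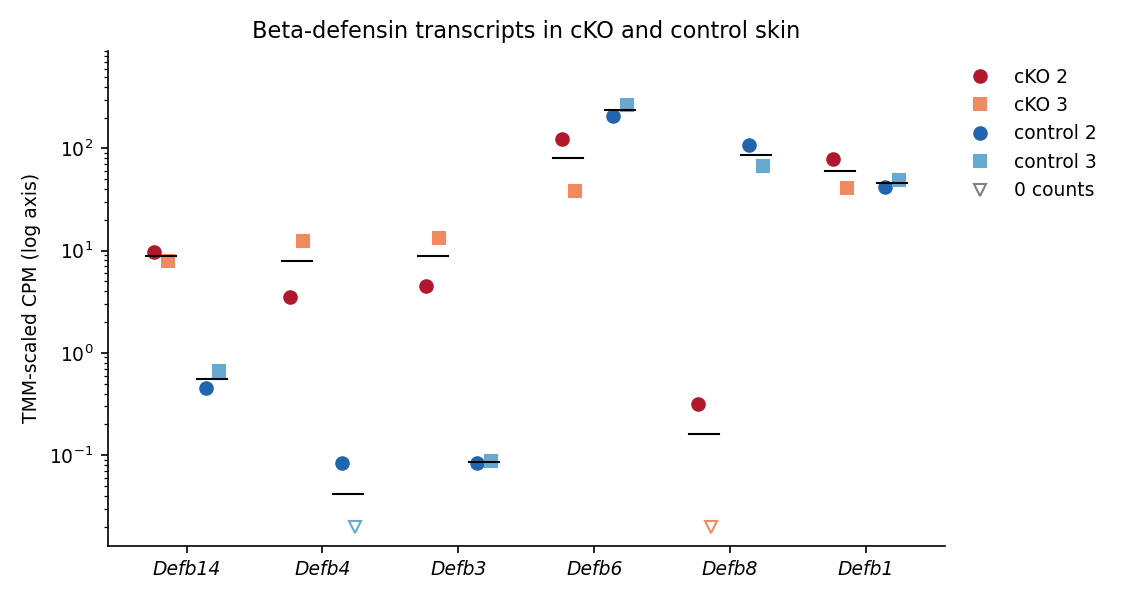
TMM-scaled CPM of the 6 beta-defensin genes on a log axis, with 1 point per library, cKO left of control, and a bar at each group's mean; open triangles at the bottom mark libraries with 0 counts. Defb14, Defb4 and Defb3 sit higher in cKO, Defb6 and Defb8 lower, and the Defb1 groups overlap.

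Defb6, known in mice from skeletal muscle and from the lining of the mouth, oesophagus and airway, was the most abundant beta-defensin of control skin. It had 122 and 38.4 CPM in cKO libraries 2 and 3, against 209 and 267 CPM in control libraries 2 and 3. Both cKO libraries lay below both controls, but cKO library 2 was 3.19 times as high as library 3, and the ratios of a control to a cKO library ran from 1.70 to 6.94. The log2 fold change was -1.56 ± 0.58 (SE), with -2.63 without cKO library 2 and -0.95 without cKO library 3. The size of the difference is therefore set by which cKO library is used, while its direction is the same.

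Defb8 had 0.318 and 0 CPM in cKO libraries 2 and 3, against 107 and 66.6 CPM in control libraries 2 and 3. The allele carried by C57BL/6 mice, also called Defr1, is known to lack a conserved cysteine of the family. In counts the contrast was 5 and 0 in cKO, against 2576 and 1511 in control. The pooled scaled ratio of control over cKO was 568, with a counting interval from 243 to 1749. The 0 in cKO library 3 allows up to 0.179 CPM at 3 counts. The log2 fold change was -9.08 ± 0.81 (SE), the second lowest of the 17440 tested genes. Without cKO library 2 the remaining cKO library is at 0 and the fitted value of -13.84 is no measure of size.

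Defb1, the steadily expressed member, had 79.2 and 40.8 CPM in cKO libraries 2 and 3, against 42.2 and 49.2 CPM in control libraries 2 and 3. The groups overlapped, since cKO library 3 lay below both controls and cKO library 2 above them. The fitted log2 difference, 0.39 ± 0.35 (SE), turned to -0.17 without cKO library 2, so no direction can be given.

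**Figure D2:**
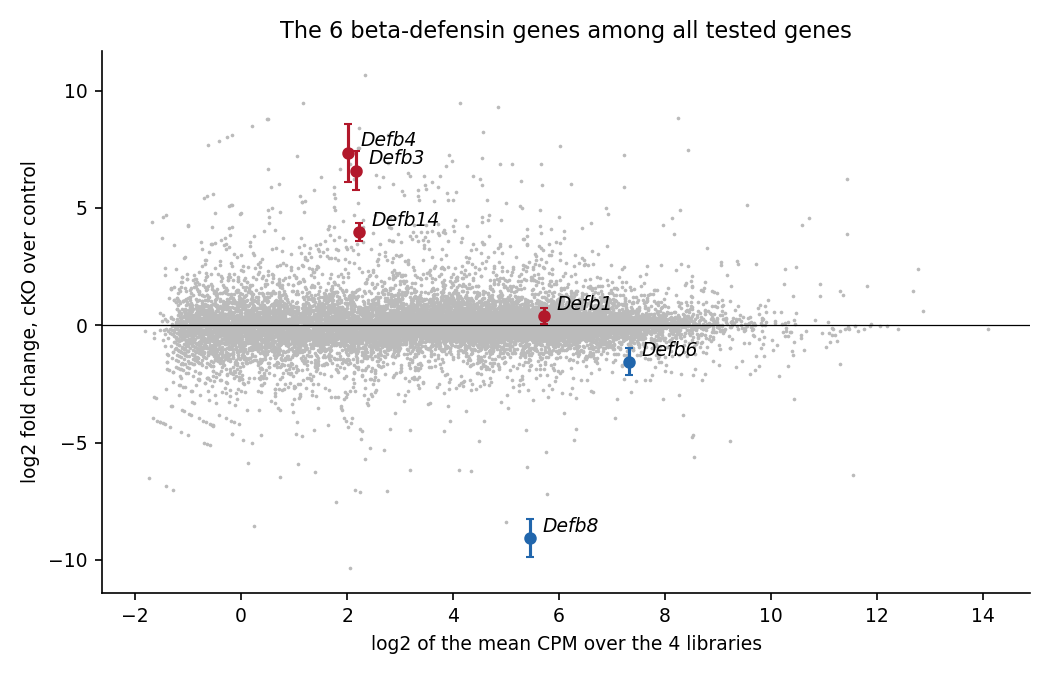
Log2 fold change of cKO over control against the log2 of mean CPM for the 17440 tested genes (grey), with the 6 beta-defensin genes and the SE of each. Defb4, Defb3 and Defb14 lie far above 0 at low mean level, Defb8 lies near the lower edge of all genes, and Defb1 lies close to 0.

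Against all genes, the counts of members read as follows. All 6 passed the filter on low counts, which Defb14, Defb4 and Defb3 did through their cKO level and Defb8 through its control level. The groups did not overlap for 5 of the 6 members, as for 52.9% of all tested genes: 3 lay above, as for 25.1%, and 2 below, as for 27.7%. The edgeR quasi-likelihood test over all genes placed 2 of the 6, Defb14 and Defb8, past an adjusted p of 0.05, as it did 1.09% of all tested genes. Nothing is read from these counts, because the members were chosen on this comparison. The authors' deposited log2 fold changes for the members, from the comparison they were chosen on, ran from -8.96 for Defb8 to 6.48 for Defb4.

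Per length, the order of the genes differed between the groups. The length behind each FPKM value, worked out from count, FPKM and library total, was that of the annotated transcript, from 204 bases for Defb14 to 872 for Defb1. In cKO the FPKM averaged 245 ± 185 for Defb6, 67.5 ± 32 for Defb1, 42.2 ± 6.87 for Defb14, 31.2 ± 21.0 for Defb3, 17.0 ± 13.2 for Defb4 and 0.55 ± 0.78 for Defb8 (SD, n = 2 libraries each). In control it averaged 752 ± 124 for Defb6, 310 ± 104 for Defb8, 53.6 ± 5.35 for Defb1, 2.80 ± 0.70 for Defb14, 0.32 ± 0.014 for Defb3 and 0.095 ± 0.13 for Defb4. Within each cKO library, Defb6 lay above Defb1, Defb1 above Defb14, Defb3 above Defb4 and Defb4 above Defb8. Defb3 changed its place. In cKO library 2 it had 16.3, against 47.05 for Defb14 and 90.08 for Defb1. In cKO library 3 it had 46.03, against 37.34 for Defb14 and 44.86 for Defb1. In control no neighbours in the order overlapped, but its lowest step rests on 2 and 2 counts for Defb3, against 2 and 0 for Defb4. In control library 2 these genes had equal counts and differed in FPKM by transcript length alone. Among all genes ranked by FPKM, Defb6 stood 120th and 414th in cKO libraries 2 and 3, against 64th and 51st in control libraries 2 and 3. Defb8 stood 111th and 186th in control.

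The family's summed FPKM was 539 and 269 in cKO libraries 2 and 3, against 1103 and 1141 in control libraries 2 and 3. The 2 cKO libraries therefore held less beta-defensin RNA per length than either control library. Defb6 and Defb8 together made up 70.1% and 42.5% of it in cKO, against 94.9% and 94.2% in control. Defb14, Defb4 and Defb3 together made up 13.2% and 40.8% in cKO, against 0.254% and 0.317% in control. In absolute FPKM these 3 genes gained less than Defb6 and Defb8 lost: they summed to 71.0 and 110 in cKO, against 2.80 and 3.62 in control.

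**Figure D3:**
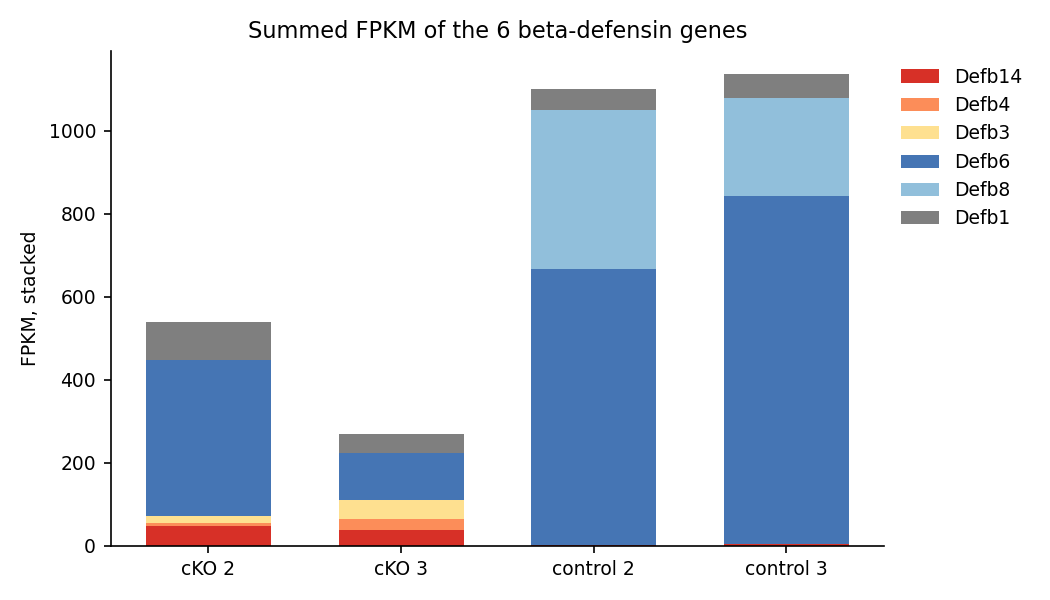
Stacked FPKM of the 6 beta-defensin genes in each library, cKO left of control. The cKO bars reach 539 and 269 FPKM and hold Defb14, Defb4 and Defb3 in visible amounts, whereas the control bars reach 1103 and 1141 FPKM and consist almost wholly of Defb6, Defb8 and Defb1.

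The other 37 beta-defensin genes were at or near 0 in skin of both groups: 27 had 0 counts in all 4 libraries, 7 had 1 to 4 counts in total and 3 had 10 or more. None of the 37 passed the filter, so none was tested. The 3 with 10 or more counts lie side by side beyond Defb1, in the order Defb15, Defb35 and Defb13, and had 0 counts in both cKO libraries. Defb13 had 13 and 9 counts in control libraries 2 and 3, Defb15 had 9 and 11, and Defb35 had 3 and 13. Against a floor of 3 counts over the cKO group, and with the control counts taken as they stand, Defb13 was at least 5.09-fold lower in cKO and Defb15 at least 4.63-fold. No such bound is given for Defb35, since control library 2 alone lies at the floor.

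Between the members, Defb46 and Defb5, which lie between Defb6 and Defb3, had 0 counts in every library, as did Defb7, the next gene beyond Defb8. The stretch between Defb8 and Defb1 holds 29 alpha-defensin genes in RefSeq, peptides known from Paneth cells of the gut. Of these, 12 are in the table and 0 had a count in any library. Spag11a, the gene before Defb14, had 1 count in all. Its neighbour Spag11b, whose product resembles a beta-defensin, had 1 and 6 counts in cKO libraries 2 and 3, against 22 and 27 in control libraries 2 and 3, without passing (log2 fold change -2.26 ± 0.75 SE, edgeR quasi-likelihood adjusted p = 0.202); it was named after its values were seen. In these 4 libraries, abundant genes and genes with 0 counts were thus next to each other.

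**Figure D4:**
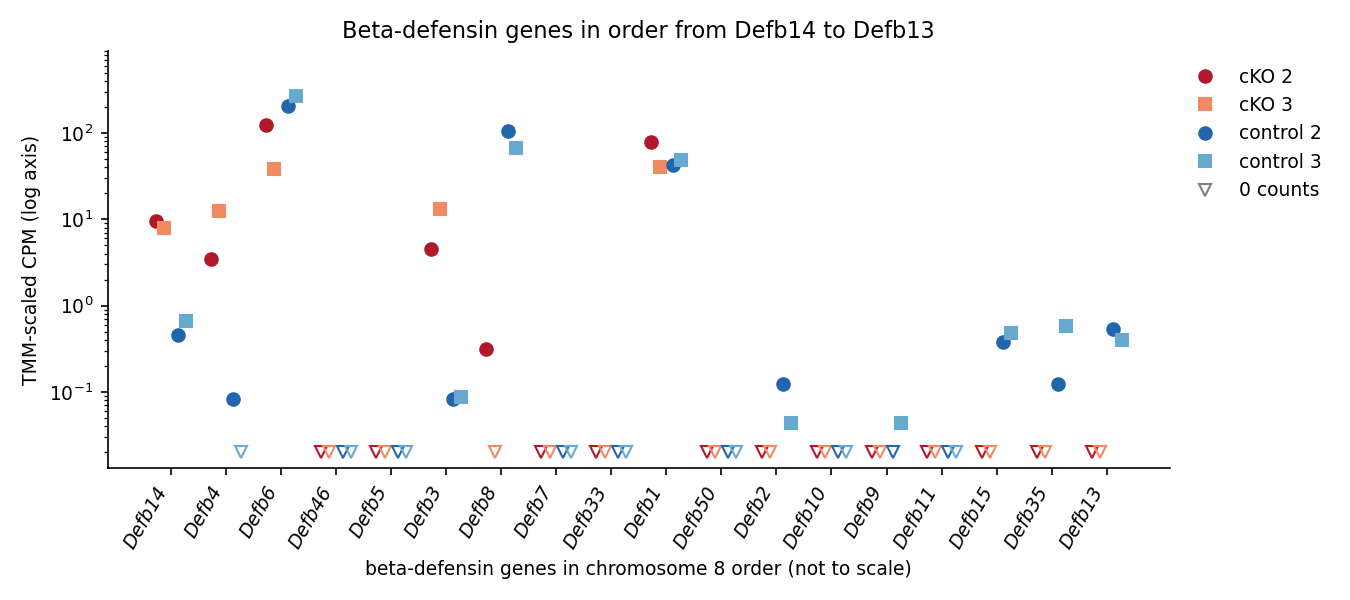
TMM-scaled CPM on a log axis for the beta-defensin genes of the table in chromosome order from Defb14 to Defb13, not to scale, with 1 point per library and open triangles for 0 counts. Defb14, Defb4 and Defb3 are higher in cKO and Defb6 and Defb8 lower, with Defb46 and Defb5 at 0 between them, and Defb15, Defb35 and Defb13 at the right have control counts only.

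Which other genes had a profile most like each member was asked over the 4 libraries, by the Euclidean distance between log2(CPM + 0.5) profiles centred on their mean. Tested genes with names of predicted genes or clones were left out of this search. Nearest to Defb14 were Ifitm1 (distance 0.19), the small proline-rich envelope gene Sprr2h (0.352) and Hdc, the enzyme that makes histamine (0.432). Nearest to Defb4 were P4ha3, a collagen prolyl hydroxylase subunit (0.239), Sprr2j-ps (0.252) and Defb3 (0.257). Nearest to Defb3 were Sprr2j-ps (0.185), Defb4 (0.257) and the matrix metalloproteinase Mmp3 (0.265). Mmp3 had 266 and 679 CPM in cKO libraries 2 and 3, against 24.4 and 24.9 CPM in control libraries 2 and 3. Its level was thus higher in cKO library 3, as for Defb4 and Defb3. The 0.5 CPM added to each level exceeds the control levels of Defb4 and Defb3 and lies near those of Defb14. Distances to these members therefore understate differences in fold change. The log2 fold change was 4.26 for Mmp3, against 6.59 for Defb3, and 3.09 for Ifitm1, against 3.96 for Defb14.

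Nearest to Defb6 were the major urinary protein genes Mup7 (0.198) and Mup11 (0.224), whose counts are uncertain because the family has near-identical copies, and Fam180a (0.23). Mup7 was low, with 0.954 and 0 CPM in cKO libraries 2 and 3, and its log2 fold change was -2.50, against -1.56 for Defb6. Nearest to Defb8 were Serpina3b (0.82), Paqr7 (1.65) and Ear2 (1.87), so no gene in the search came as close to it as to the other members. Serpina3b had 1.40 and 0.119 CPM in cKO libraries 2 and 3, against 118 and 100.1 CPM in control libraries 2 and 3. It has close serpin paralogs, so its counts are uncertain. Nearest to Defb1 were Tex30 (0.091), Nanos1 (0.112) and Ly6d (0.154), a surface protein of keratinocytes.

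The summed levels of several marker lists differed along with the members, and their part in these results was not tested. In whole skin, fewer cells of a type and less RNA per cell cannot be told apart. The 10 sebaceous gland markers summed to 2259 and 1401 CPM in cKO libraries 2 and 3, against 5397 and 6307 CPM in control libraries 2 and 3; all 10 had log2 fold changes below 0 and none was at 0 counts, where 49.9% of all tested genes lay above 0. The lipid enzyme genes Scd3 and Elovl5 were called lower, at -4.88 ± 0.51 and -2.11 ± 0.22 (SE), where 0.35% of all tested genes were. Defb6 and the sebaceous sum had the same order over the 4 libraries, and so did the sums of the dendritic and Langerhans cell markers and of the adipocyte markers. Defb8 was higher in control library 2 than in library 3, unlike the sebaceous sum, and differed by only 5 counts between the cKO libraries. In control libraries 2 and 3, Scd1 alone gave 3283 and 4311 CPM of the sebaceous sum. Of its 10 markers, 7 were higher in control library 2, as Defb8 was, whereas Defb6 was higher in control library 3. The 12 hair follicle markers summed to 8698 and 3252 CPM in cKO, against 5240 and 4144 CPM in control. Of these, 11 of the 12 were higher in cKO library 2 than in library 3, as Defb6 and Defb1 were. So were 10 of 10 sebaceous, 5 of 6 basal keratinocyte and 4 of 4 melanocyte markers, but only 2 of 6 macrophage and 0 of 4 muscle markers. Of the 12 follicle markers, 5 had log2 fold changes above 0 (median -0.11). Krt71, Krt25 and Krt27 had 2.59 to 2.71, and Gata6 had -2.44.

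The 4 skeletal muscle markers summed to 1400 and 8749 CPM in cKO libraries 2 and 3, against 6109 and 9528 CPM in control libraries 2 and 3. All 4 had log2 fold changes below 0 (median -0.79) and none was called. Both this sum and Defb6 were higher in control library 3 than in control library 2, and between the cKO libraries the sum was higher in library 3 and Defb6 in library 2. The 7 suprabasal keratinocyte markers summed to 18435 and 30631 CPM in cKO, against 13577 and 13534 CPM in control, with cKO library 3 the highest, as for Defb4 and Defb3. That sum is carried by Krt1 and Krt10, and the other 5 of the 7 markers had log2 fold changes below 0. The 10 neutrophil markers summed to 281 and 279 CPM in cKO, against 28.5 and 32.5 CPM in control, and all 7 that could be tested had log2 fold changes above 0. The collagenase gene Mmp8 and the lectin gene Clec4d were called higher, at 6.03 ± 0.67 and 7.15 ± 0.47 (SE), where 0.74% of all tested genes were. Mmp8, Clec4d, Retnlg and Ngp passed the filter on low counts through their cKO level, so they could be tested only because they were high there. Of the 3 not tested, Ly6g had 39 and 8 counts in cKO, against 0 and 3 in control, and Mpo and Elane had 3 counts or fewer in every library.

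Markers of other immune cells and of fat also differed. The 5 dendritic and Langerhans cell markers summed to 275 and 227 CPM in cKO libraries 2 and 3, against 722 and 1097 CPM in control libraries 2 and 3. All 5 had log2 fold changes below 0, and the lectin gene Cd209a was called lower at -2.53 ± 0.27 (SE), where 0.35% of all tested genes were. The 6 macrophage markers summed to 869 and 959 CPM in cKO, against 392 and 544 CPM in control, with 5 of 6 above 0 and none called.

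The 4 adipocyte markers summed to 131 and 103 CPM in cKO, against 184 and 349 CPM in control, with all 4 below 0 and none called. The 6 T cell markers summed to 11.7 and 37.2 CPM in cKO, against 23.2 and 29.9 CPM in control. Cd4 and Trdc carried the sum in cKO library 3, with 20.9 and 10.8 CPM there. Cd3d, Cd3e, Cd3g and Cd8a were lower in both cKO libraries than in both control libraries, with log2 fold changes from -2.60 to -1.12. Cd8a, the furthest from 0, passed the filter on low counts only through its control level. It had 4 and 2 counts in cKO, against 27 and 27 in control. The 4 melanocyte markers summed to 211 and 27.3 CPM in cKO, against 115 and 27.5 CPM in control.

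Among cytokines and growth factors known to induce epidermal beta-defensins, 4 of 11 tested genes rose in cKO and the other 7 did not pass, where 0.74% of all tested genes rose. Nothing is read from these shares, because the list was chosen with earlier results of these data known. Il6 also passed the filter on low counts through its cKO level. Il1b had 196 and 131 CPM in cKO libraries 2 and 3, against 8.77 and 9.82 CPM in control libraries 2 and 3 (log2 fold change 4.14 ± 0.26 SE, adjusted p = 0.0332 by edgeR quasi-likelihood). The IL-36 genes Il1f6 and Il1f8 and the EGF receptor ligand Hbegf were the other called genes, with log2 fold changes of 3.37 ± 0.25, 1.89 ± 0.16 and 1.77 ± 0.17. Il1f9, the IL-36 gamma gene, had 1.17 ± 0.15 without passing (edgeR quasi-likelihood adjusted p = 0.0525). All 11 tested genes were above 0, and their median log2 fold change was 1.77, against -0.0014 for all tested genes.

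The other 5 of the 16 listed inducers were too low to be tested. Il17a had 4 and 22 counts in cKO libraries 2 and 3, against 1 and 1 in control libraries 2 and 3. Il17f had 0 and 19 counts in cKO, against 0 and 2 in control, and Il22 had 0 and 2 in cKO, against 0 and 0 in control. The Il17a and Il17f counts, like the levels of Defb4 and Defb3, were highest in cKO library 3. Of the 16 listed inducers, 7 were higher in cKO library 2 than in library 3. Il1b, Il1f8 and Hbegf were among these 7, while Il1f6 was higher in cKO library 3. Il17c had 3 and 7 counts in cKO, against 1 in each control library, and Ifng had 0 in both cKO libraries, against 0 and 3 in control.

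Receptors and transcription factors upstream of beta-defensins were abundant but gave no calls in the main test. Of 15 receptors, adaptors and sensors, edgeR quasi-likelihood called 0, while 7 had an unadjusted p under 0.05, as 20% of all tested genes had. DESeq2 and the edgeR exact test each called 1, lower in cKO, and limma voom called 0. Over all genes these tools called 9.36%, 10.4% and 1.15%. Il17rc, a chain of the IL-17 receptor, had a log2 fold change of -0.40 ± 0.15 (SE), Tnfrsf1a one of 0.25 ± 0.16 and Ifngr1 one of -0.36 ± 0.24. Furthest from 0 in this list was Il17re, at -1.43 ± 0.20 without passing (edgeR quasi-likelihood adjusted p = 0.0582), while 8 of the 15 were above 0. Of 17 transcription factors and inhibitors, edgeR quasi-likelihood called 0, while 6 had an unadjusted p under 0.05. DESeq2 and the exact test each called 3, all higher in cKO, and voom called 0. Stat3, which acts below IL-22 and IL-6 receptors, had 0.51 ± 0.17, Cebpa -0.41 ± 0.21 and Junb 0.10 ± 0.36. Furthest from 0 on each side were Fos at -1.68 ± 0.75 and Hif1a at 1.33 ± 0.17, also without passing. The medians of the lists were 0.25 and -0.015 on the log2 scale, against -0.0014 for all tested genes.

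Receptors and partners reported for beta-defensins were called in 0 of 11 cases by edgeR quasi-likelihood, while 5 had an unadjusted p under 0.05, as 20% of all tested genes had. DESeq2 called 4, the exact test called 5 and voom called 0, where these tools called 9.36%, 10.4% and 1.15% of all genes. Ccr6, the receptor shared by beta-defensins and the chemokine Ccl20, had 0.636 and 0.537 CPM in cKO libraries 2 and 3, against 1.41 and 2.38 CPM in control libraries 2 and 3 (log2 fold change -1.68 ± 0.47 SE, edgeR quasi-likelihood adjusted p = 0.153). Ccl20 had -1.62 ± 0.79 without passing; both were named for their role. Of the most abundant genes of this list, Tlr4 had 1.25 ± 0.21, Ccr2 0.57 ± 0.43 and Egfr -0.12 ± 0.18. The list's median was 0.57, and it turned to -0.21 without cKO library 2 and to -0.014 without control library 3.

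Among cathelicidin and other epithelial antimicrobial genes, 5 of 19 tested genes rose and the other 14 did not pass, where 0.74% of all tested genes rose. Nothing is read from these shares, because the list was chosen with earlier results of these data known. Wfdc12, Reg3g and Ltf also passed the filter on low counts through their cKO level. The called genes were the calprotectin subunits S100a9 and S100a8, the siderophore binder Lcn2, the protease inhibitor Wfdc12 and the chitinase-like Chil1. S100a9 and S100a8 had log2 fold changes of 7.48 ± 0.55 and 7.27 ± 0.45 (SE). Lcn2 had 97.9 and 90.4 CPM in cKO libraries 2 and 3, against 5.57 and 4.45 CPM in control libraries 2 and 3, and Chil1 128 and 97.7 CPM in cKO, against 11.9 and 7.53 CPM in control. Wfdc12 had 29.6 and 60.6 CPM in cKO, against 0.873 and 0.308 CPM in control, and was higher in cKO library 3, as were Defb4 and Defb3. Of the 20 listed antimicrobials, 11 were higher in cKO library 2 than in library 3. Lyz2 and the ribonuclease gene Rnase4, abundant in both groups, had log2 fold changes of 1.03 ± 0.35 and -0.010 ± 0.23 (SE) without passing. The cathelicidin gene Camp, with 6 and 19 counts in cKO, against 3 and 2 in control, was too low to be tested. These 19 genes had a median of 1.13 on the log2 scale, and it was 1.89 without control library 2 and 2.17 without control library 3. With control library 2 or control library 3 left out, the edgeR quasi-likelihood test called 0 of all genes, with 1832 and 1574 at an unadjusted p under 0.05, so each call in these lists rests on both controls.

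**Figure D5:**
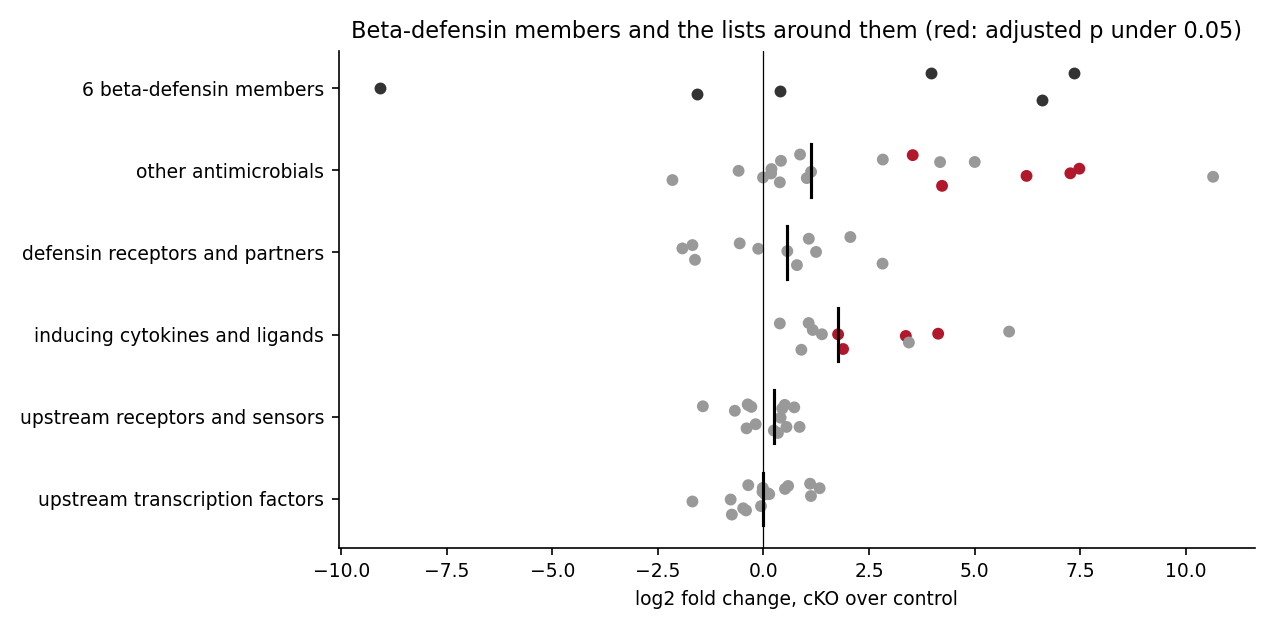
Log2 fold change of cKO over control for the 6 beta-defensin members (black) and for the tested genes of each list, with red points for adjusted p under 0.05 in the edgeR quasi-likelihood test, grey points for the rest and a bar at each list's median. The members spread from -9.08 to 7.35, while the inducing cytokines all lie above 0 and the upstream receptors and transcription factors centre near 0.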

How the data were processed

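Expected counts per gene were estimated by the authors with RSEM, per the submitters' processing notes, and hold whole numbers. FPKM values, log2 fold changes and p-values with false discovery rates were deposited by the authors, per the file headers; edgeR is listed among the tools in the submitters' notes. The notes name build mm8. Not given in the sources used here: aligner, annotation release and strand setting. Of gene identifiers, 98.9% match GENCODE M21 (GRCm38), so gene order and sequences come from RefSeq on GRCm38.p6 and the coordinates printed are those of its sequences, not of the counts. Promoters matched 3 of the 6 members by symbol. Lines without content, 4 in number, are not analysed here. Columns named Ctr were matched to the PP6fl/fl titles, the only group besides cKO.

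Counts were filtered with filterByExpr, scaled with TMM and tested with edgeR 4.0.16 (R 4.3.3; glmQLFit, glmQLFTest, no covariate), with Benjamini-Hochberg adjustment over 17440 genes and a threshold of 0.05. The biological coefficient of variation was 0.284. DESeq2 1.42.0, the edgeR exact test and limma 3.58.1 were alternatives. SE is the unshrunken log2 fold change divided by the square root of F. Counting intervals are exact binomial (Clopper-Pearson) at 95% and cover counting error only; a floor of 3 counts stands for a group at 0, with the other group's counts taken as exact. Replicates differed by more than sampling noise (chi-square per gene 93.6 in cKO and 24.2 in control). The scripts were tested on simulated counts. Promoters and transcripts were aligned globally with Biopython 1.88.

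Members and lists were chosen with earlier results of these data known. The text names the members, other beta-defensins with 10 or more counts, Ppp6c and some, not all, of the members' protein-coding neighbours. It also names the called genes of every list, the 3 most abundant of each pathway list, and the 3 genes most like each member. Other names (low cytokines, Camp, Reg3g, Ltf, Il6, Il17re, Hif1a, Fos, Ccr6, Ccl20, Spag11b and marker genes that carry or lack a list's signal) were added after their values were seen.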

Additional observations from a re-analysis of the deposited data

How the results depend on the processing

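With 2 libraries per group, the number of calls is the least settled value. Against 190 genes called, the edgeR exact test called 1811, DESeq2 1747, the test with no filter on low counts 883, and limma on log2(FPKM + 0.1) and log2(FPKM + 1) 295 and 383. Leaving out single libraries gave 0 to 1664, with 0 without control library 2 or 3, where 1832 and 1574 genes had an unadjusted p under 0.05. With the replicate block 1177 genes were called, including all 190. The replicate numbers pair nothing by the labels; the differences between libraries 2 and 3 correlated at 0.457 between the groups across genes. Of the members, Defb14 stood at 3.51, Defb3 at 4.43 and Defb4 at 3.82 with log2(FPKM + 1), which understates low genes, and Defb4 at 5.82 with a prior count of 2. Leaving out libraries gave 6.18 to 10.2 for Defb4, 5.63 to 7.17 for Defb3, 3.72 to 4.26 for Defb14, -13.84 to -8.06 for Defb8, -2.63 to -0.95 for Defb6 and -0.17 to 0.80 for Defb1. Over all 14 alternatives run, the signs of Defb14, Defb4, Defb3, Defb6 and Defb8 did not turn, and that of Defb1 turned in 1. The antimicrobial median, 1.13, was 1.93 with no filter, 1.27 with limma voom and 2.0 with DESeq2, and 1.16 to 2.17 without single libraries. The inducer median, 1.77, was 2.26 with no filter and 2.38 with DESeq2, and 1.74 to 1.97 without single libraries. The median of receptors and partners was -0.21 to 0.73 without single libraries. Depth limits Defb4 and Defb3 in control and Defb8 in cKO, each at 5 counts or fewer per library. The cause of these shifts was not tested.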
